A study of Homo sapiens with 4 samples.

Results

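The 9 genes described here encode amino acid transporters of the plasma membrane: SLC7A5, SLC3A2, SLC7A11, SLC7A1, SLC1A4, SLC1A5, SLC38A1, SLC38A2 and SLC6A9. They were taken by gene symbol from the deposited table of 28482 genes, where all 9 were found, and all 9 were among the 13296 genes that passed the expression filter. RNA was sequenced from K562/G01, an imatinib-resistant derivative of K562, an established chronic myeloid leukemia line that carries the BCR-ABL1 kinase targeted by imatinib. The 4 groups were TCF7_KD cells, infected with the lentivirus LV-TCF7-RNAi against the transcription factor TCF7, and Scramble cells, infected with LV-Scramble, each of them kept without imatinib or exposed to 1 µM for 48 hours. All groups therefore share the resistant parent line and a lentiviral infection, and each is 1 library of 1 culture. Whether the cultures were infected separately is not given in the sources used here, so the hairpin cannot be told apart from any lasting difference between the infected cultures.

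Cells take up most amino acids through carriers that exchange one amino acid for another or couple uptake to sodium. SLC7A5 (LAT1) and SLC7A11 (xCT) are light chains that reach the cell surface bound to the common heavy chain SLC3A2 (4F2hc). SLC7A5 brings in leucine and other large neutral amino acids, and SLC7A11 brings in cystine, the source of cysteine for glutathione, in exchange for glutamate. SLC1A5 (ASCT2), SLC38A1 (SNAT1) and SLC38A2 (SNAT2) carry glutamine among other neutral amino acids, SLC1A4 (ASCT1) exchanges alanine, serine and cysteine, SLC7A1 (CAT1) carries arginine and lysine, and SLC6A9 (GlyT1) carries glycine, a substrate of heme synthesis in erythroid cells. Several of these genes are known targets of ATF4, the transcription factor of the integrated stress response, which binds a composite element for C/EBP and ATF factors during amino acid shortage.

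The deposited counts summed to 30634832 in the knockdown library and 33146606 in the scramble library, and under imatinib to 31744915 in the knockdown library and 34095585 in the scramble library. TCF7 was at 2.55 CPM (counts scaled to a common library total) in the knockdown library and 10.2 CPM in the scramble library, and under imatinib at 3.69 CPM in the knockdown library and 10.8 CPM in the scramble library; it fell with knockdown (log2 fold change -1.75, SE 0.206, edgeR adjusted p = 1.51e-07). The erythroid markers fixed for K562 were all 9 above the filter and summed to between 3358 and 3603 CPM per library. The 3 B cell markers in the table summed to at most 0.131 CPM. The 5 T cell markers in the table summed to between 17.8 and 25.6 CPM, most of it from CD3D (13.96 to 20.8 CPM), while CD3E and CD4 were at 0 in 3 libraries. The 5 fibroblast and epithelial markers in the table summed to between 47.4 and 60.3 CPM, most of it from EPCAM. COL1A1 rose with knockdown at a low level (log2 fold change 2.71, edgeR adjusted p = 0.00142). It had 1.37 and 1.01 CPM in the knockdown libraries without and under imatinib against 0.151 and 0.205 CPM in the scramble libraries. COL1A1 reached the filter of 1 CPM only in the knockdown libraries, so whether it was tested at all depended on the direction of its difference. Its part in the results on the transporters was not tested. A bulk library cannot tell fewer cells of a kind from less RNA per cell.

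A ratio between 2 libraries is given on the log2 scale of normalised CPM, with a 95% interval that covers counting error only, and has no replicate check. Knockdown across the imatinib states, and imatinib across the hairpins, were tested with edgeR's quasi-likelihood test in an additive model of the 4 libraries. That test sets 2 libraries against 2 and leaves 1 residual degree of freedom per gene. The p-values are therefore not measured against replicate cultures, of which there are none. They rest mostly on a spread pooled over all genes (33.8 prior degrees of freedom). The words rose and fell are kept for genes with a Benjamini-Hochberg adjusted p under 0.05 over all genes tested.

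To set the genes side by side per length, the deposited FPKM values were used. In the scramble library the order of levels was SLC38A2 at 75.2 FPKM (counting interval 74.1 to 76.4), SLC1A5 at 60.6 (59.2 to 62.1), SLC38A1 at 55.6 (54.8 to 56.4), SLC7A5 at 26.5 (25.7 to 27.3), SLC3A2 at 23.3 (22.6 to 24.0), SLC7A1 at 15.7 (15.3 to 16.2), SLC7A11 at 11.3 (10.9 to 11.6), SLC1A4 at 2.33 (2.14 to 2.54) and SLC6A9 at 2.275 (2.05 to 2.51). The last pair had overlapping intervals, and every other pair of neighbours was separated by more than counting error. These intervals do not cover the gene lengths behind the FPKM values, and other lengths could change the order of neighbours. By these values the 3 carriers of glutamine stood highest, the heterodimer genes and SLC7A1 in the middle, and SLC1A4 and SLC6A9 lowest. The 9 genes summed to 1544 CPM in the knockdown library and 1759 CPM in the scramble library, and under imatinib to 1588 CPM in the knockdown library and 1786 CPM in the scramble library.

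**Figure D1:**
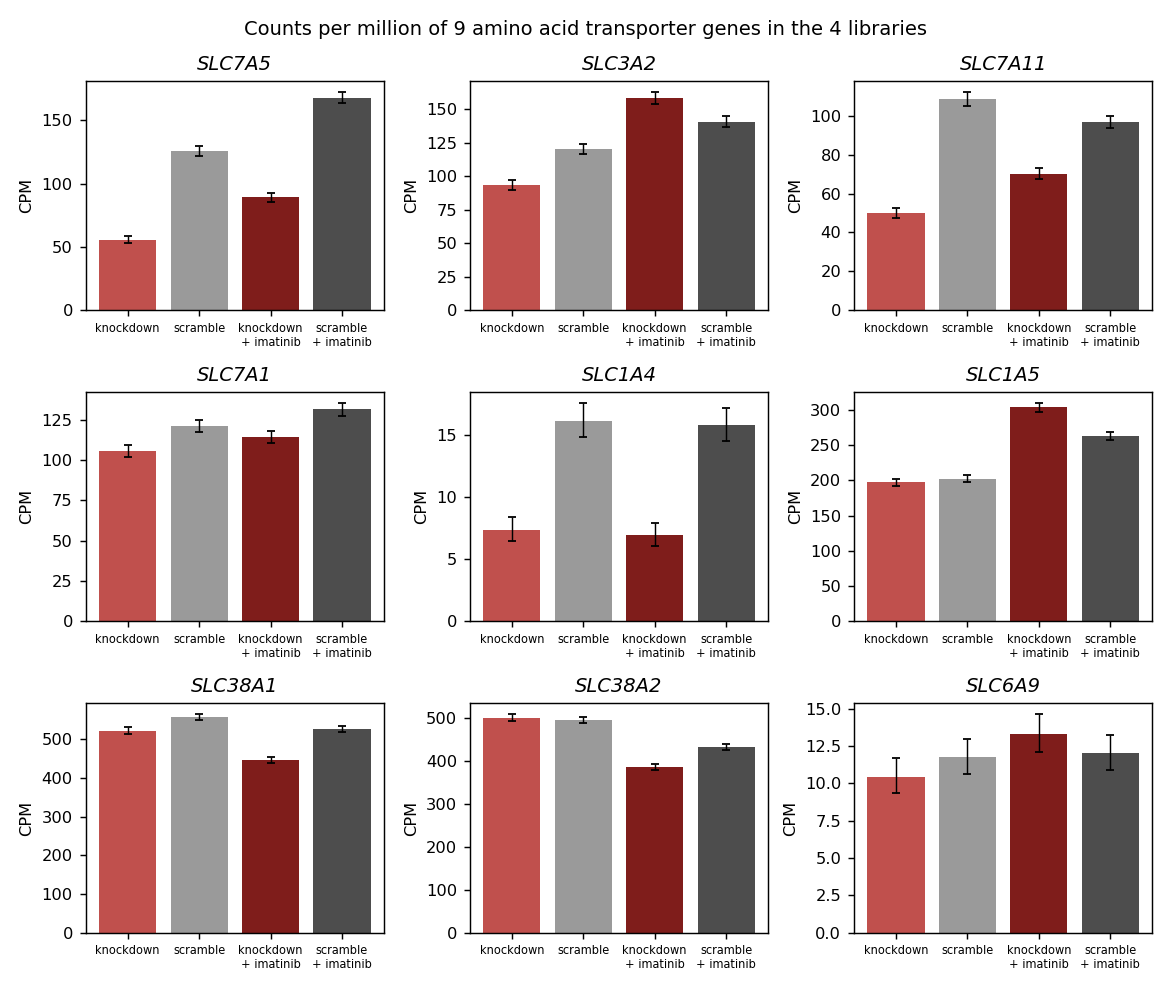
CPM (vertical axes, each from 0) of the 9 genes in the 4 libraries, with exact Poisson 95% intervals of the count as error bars (1 library per bar). SLC7A5, SLC7A11 and SLC1A4 and, by a smaller margin, SLC7A1 were lower in both knockdown libraries than in both scramble libraries. SLC38A1 and SLC38A2 were lowest in the knockdown library with imatinib. For SLC38A1 the intervals of the knockdown library without imatinib and the scramble library with it overlapped. For SLC7A1 those of the knockdown library with imatinib and the scramble library without it overlapped.

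With knockdown, 3 of the 9 genes fell, 0 rose and 6 were not called. Those that fell were SLC7A5, SLC7A11 and SLC1A4. Of all 13296 genes tested, 3.34% were called lower and 3.8% higher with knockdown. The median log2 fold change of the 9 genes was -0.15, against 0.01 over all genes tested. At 2-fold or more lower were 3 of the 9 genes without imatinib, where 1.75% of all genes were, and 1 of the 9 under imatinib, where 1.51% were.

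SLC7A5 (ENSG00000103257.8, GRCh38 chromosome 16, 87830023 to 87869488, minus strand) had 55.8 CPM in the knockdown library (counting interval 53.2 to 58.5) and 126 CPM in the scramble library (122 to 130). Under imatinib it had 89.0 CPM (85.8 to 92.4) in the knockdown library and 168 CPM (163 to 172) in the scramble library. Both knockdown libraries lay below both scramble libraries. The log2 ratio of knockdown over scramble was -1.16 (-1.25 to -1.08) without imatinib and -0.89 (-0.96 to -0.83) under imatinib, and the gene fell (log2 fold change -1.03, SE 0.0794, edgeR adjusted p = 2.02e-11). DESeq2 and limma called it too. SLC7A5P1, a pseudogene copy that can share reads with SLC7A5, had 106 counts in the knockdown library and 178 in the scramble library, and under imatinib 177 in the knockdown library and 209 in the scramble library, against 1709 to 5720 for SLC7A5. How reads that match both were counted is not given in the sources used here.

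SLC7A11 (ENSG00000151012.13, chromosome 4, 138164097 to 138242349, minus strand) had 49.9 CPM (47.5 to 52.5) in the knockdown library and 109 CPM (105 to 112) in the scramble library. Under imatinib it had 70.25 CPM (67.4 to 73.2) in the knockdown library and 96.7 CPM (93.5 to 100.1) in the scramble library. Again both knockdown libraries were below both scramble libraries, but by unequal amounts: the log2 ratio was -1.11 (-1.2 to -1.03) without imatinib and -0.44 (-0.52 to -0.36) under it. In the additive fit the gene fell by 0.77 on the log2 scale (SE 0.0984, edgeR adjusted p = 7.02e-07). This call was not made by DESeq2 (adjusted p = 0.275) or by limma on the deposited FPKM values.

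SLC3A2, the heavy chain of both carriers (ENSG00000168003.16, chromosome 11, 62856102 to 62888875, plus strand), had 93.5 CPM in the knockdown library and 120.5 CPM in the scramble library. Under imatinib it had 158 CPM in the knockdown library and 141 CPM in the scramble library. The knockdown libraries were thus the lowest and the highest of the 4. The log2 ratio of knockdown over scramble was -0.36 (-0.43 to -0.29) without imatinib and 0.19 (0.13 to 0.25) under imatinib. SLC3A2 was not called for knockdown (edgeR adjusted p = 0.690, log2 fold change -0.08, SE 0.0873).

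The balance of light to heavy chain transcripts does not depend on the scaling of the libraries. Per length, SLC7A5 stood at 0.651 of SLC3A2 in the knockdown library and 1.14 in the scramble library, and under imatinib at 0.614 in the knockdown library and 1.30 in the scramble library. On the log2 scale this balance was lower by 0.81 in the knockdown library without imatinib (change -0.81, counting interval -0.91 to -0.70) and by 1.08 under imatinib (change -1.08, -1.17 to -0.998). SLC7A11 stood at 0.287 of SLC3A2 in the knockdown library and 0.484 in the scramble library, and under imatinib at 0.238 in the knockdown library and 0.369 in the scramble library. The log2 changes were -0.75 (-0.87 to -0.64) and -0.63 (-0.73 to -0.54). The 2 genes differ in GC content, and these changes are not corrected for the GC trend given further on with imatinib. With that trend removed, the knockdown ratios under imatinib were -0.33 for SLC7A11 and 0.05 for SLC3A2. Without imatinib they were -1.10 for SLC7A11 and -0.35 for SLC3A2. By the deposited FPKM values, SLC7A5 was therefore below SLC3A2 in both knockdown libraries and above it in both scramble libraries. Which gene stands higher within a library depends on the gene lengths behind these values. With the longest transcripts, 4537 bases for SLC7A5 and 2222 bases for SLC3A2, the order in the scramble libraries would reverse. The changes of the balance between knockdown and scramble do not depend on those lengths. This comparison of transcripts says nothing of the proteins.

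**Figure D2:**
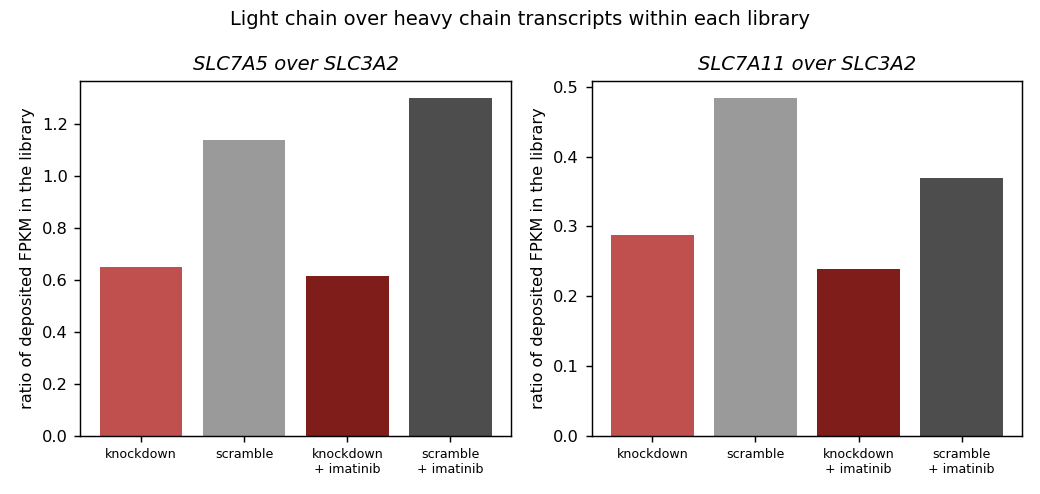
Ratio of deposited FPKM values of SLC7A5 (left) and SLC7A11 (right) to those of SLC3A2 within each of the 4 libraries (vertical axes from 0, 1 library per bar). SLC7A5 was at 0.651 and 0.614 of SLC3A2 in the knockdown libraries and at 1.14 and 1.30 in the scramble libraries.

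Of the ASCT pair of neutral amino acid exchangers, SLC1A4 fell with knockdown and SLC1A5 was not called. SLC1A4 (ENSG00000115902.10, chromosome 2, 64988477 to 65023865, plus strand) had 7.38 CPM (6.45 to 8.40) in the knockdown library and 16.2 CPM (14.8 to 17.6) in the scramble library. Under imatinib it had 6.93 CPM (6.05 to 7.91) in the knockdown library and 15.8 CPM (14.5 to 17.2) in the scramble library. Knockdown and scramble libraries did not overlap, and the ratios for imatinib had counting intervals that hold 0 in knockdown cells (-0.37 to 0.18) and in scramble cells (-0.22 to 0.13). SLC1A4 fell, with ratios of -1.12 (-1.35 to -0.90) and -1.17 (-1.41 to -0.94) without and under imatinib (log2 fold change -1.15, SE 0.156, edgeR adjusted p = 2.48e-06), and DESeq2 and limma called it too. Its counts, 226 and 220 in the knockdown libraries and 536 and 540 in the scramble libraries, are the lowest of the genes that fell and give the widest intervals.

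SLC1A5 (ENSG00000105281.12, chromosome 19, 46774883 to 46788594, minus strand) had 197 CPM in the knockdown library and 202 CPM in the scramble library. Under imatinib it had 303 CPM in the knockdown library and 262 CPM in the scramble library. Its knockdown ratio was -0.03 (-0.08 to 0.03) without imatinib and 0.23 (0.19 to 0.27) under it, and SLC1A5 was not called for knockdown (log2 fold change 0.10, SE 0.0731, edgeR adjusted p = 0.488). Per length it stood at 55.7 times the level of SLC1A4 in the knockdown library and 26.0 times in the scramble library, and under imatinib at 91.1 times in the knockdown library and 34.5 times in the scramble library.

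The sodium-coupled carriers SLC38A1 and SLC38A2, neighbours on chromosome 12 (ENSG00000111371.15, 46183063 to 46270017, and ENSG00000134294.13, 46358189 to 46372867, both minus strand), had the largest counts of the 9 genes. SLC38A1 had 523 CPM in the knockdown library and 557 CPM in the scramble library, and under imatinib 447 CPM in the knockdown library and 526 CPM in the scramble library. Its ratios were -0.08 (-0.11 to -0.05) and -0.22 (-0.25 to -0.19) without and under imatinib, and it was not called for knockdown (edgeR adjusted p = 0.221). SLC38A2 had 502 CPM in the knockdown library and 497 CPM in the scramble library, and under imatinib 386 CPM in the knockdown library and 433 CPM in the scramble library. Its ratios were 0.02 (-0.01 to 0.06) and -0.14 (-0.18 to -0.11), and it was not called for knockdown (edgeR adjusted p = 0.713). For both genes the lowest level was in the knockdown library with imatinib. The SLC38A1 levels of the knockdown library without imatinib and the scramble library with it, 523 and 526 CPM, had overlapping counting intervals.

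SLC7A1, which carries cationic amino acids without a heavy chain (ENSG00000139514.12, chromosome 13, 29509410 to 29595688, minus strand), had 105.5 CPM in the knockdown library and 121 CPM in the scramble library, and under imatinib 115 CPM in the knockdown library and 132 CPM in the scramble library. Both knockdown libraries were again below both scramble libraries, by a small margin. The counting intervals of the knockdown library with imatinib (110.8 to 118.3) and the scramble library without it (117.4 to 124.9) overlapped. The ratios were -0.19 (-0.26 to -0.12) without imatinib and -0.18 (-0.24 to -0.12) under it, and SLC7A1 was not called (log2 fold change -0.19, SE 0.0742, edgeR adjusted p = 0.138). With offsets for GC content and transcript length, given further on with imatinib, it fell (edgeR adjusted p = 0.0340), which makes 4 of the 9 genes lower where 6.33% of all genes were. SLC6A9, the glycine carrier (ENSG00000196517.11, chromosome 1, 43991500 to 44031467, minus strand), had 10.45 CPM (9.33 to 11.7) in the knockdown library and 11.7 CPM (10.6 to 13.0) in the scramble library. Under imatinib it had 13.3 CPM (12.1 to 14.6) in the knockdown library and 12.0 CPM (10.9 to 13.3) in the scramble library. Both ratios, -0.16 (-0.38 to 0.06) and 0.16 (-0.04 to 0.36), had intervals that hold 0, and the gene was not called (edgeR adjusted p = 0.992).

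**Figure D3:**
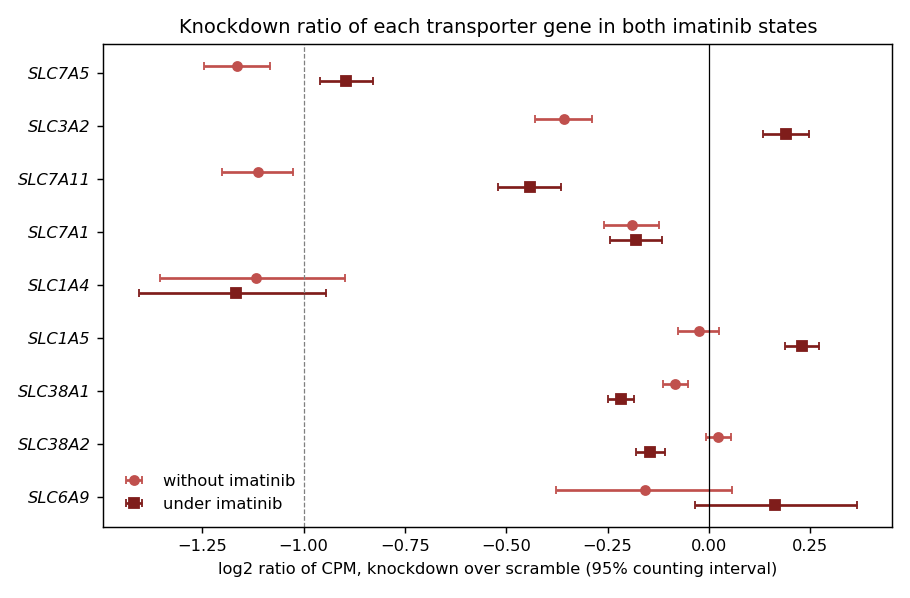
Log2 ratio of knockdown over scramble CPM (horizontal axis) for each of the 9 genes without imatinib (circles) and under imatinib (squares), with 95% counting intervals; the dashed line is 2-fold lower. SLC7A5 and SLC1A4 lay between -0.89 and -1.17 in both states, SLC7A11 at -1.11 and -0.44, and SLC3A2 on opposite sides of 0.

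With knockdown as the single term, edgeR called 0 of the 9 genes and 0 of all 13296 (818 of them had an unadjusted p under 0.05), while DESeq2 with both terms called 272 of all genes. The log2 fold changes in that fit were -1.0046 for SLC7A5, -0.76 for SLC7A11 and -1.15 for SLC1A4, close to those with both terms. With 1 library left out of such a fit, the imatinib difference of a gene also enters its knockdown value. The single-term fit with 1 library left out called 4 of the 9 genes when the knockdown library was dropped, with SLC1A5 added as higher, and 759 of all 13296. It called 3 when the knockdown library with imatinib was dropped (242 of all), 1 (SLC7A5) for the scramble library (34 of all), and 0 for the scramble library with imatinib (49 of all).

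The knockdown ratio differed between the imatinib states by more than counting error for several genes, a difference that could not be tested because it is the only residual of the model. For SLC7A11 the ratio under imatinib minus that without was 0.67 (counting interval 0.55 to 0.79), for SLC3A2 0.55 (0.46 to 0.64), for SLC6A9 0.32 (0.03 to 0.61), for SLC7A5 0.27 (0.17 to 0.37) and for SLC1A5 0.25 (0.19 to 0.32). For SLC38A1 it was -0.13 (-0.18 to -0.09) and for SLC38A2 -0.17 (-0.21 to -0.12). SLC7A1 and SLC1A4 had differences of 0.01 and -0.05 with intervals that hold 0. Among the 10105 tested genes that averaged at least 5 CPM, the median size of this difference was 0.14. A difference at least as large as that of SLC7A11 was found in 2.13% of them, and one at least as large as that of SLC3A2 in 4.28%. With the trend over GC content and length removed, the difference was 0.77 for SLC7A11 and 0.40 for SLC3A2, but 0.05 for SLC7A5 and 0.04 for SLC1A5.

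With imatinib, 3 of the 9 genes rose, 1 fell and 5 were not called, where 13.8% of all genes tested were called higher and 7.08% lower. Those that rose were SLC7A5, SLC1A5 and SLC3A2, and SLC38A2 fell. SLC7A5 had 89.0 CPM under imatinib against 55.8 CPM without it in knockdown cells, and 168 CPM against 126 CPM in scramble cells, with log2 ratios of 0.67 (0.58 to 0.76) and 0.40 (0.34 to 0.46). SLC1A5 had ratios of 0.62 (0.57 to 0.66) in knockdown cells and 0.36 (0.32 to 0.41) in scramble cells. SLC3A2 had ratios of 0.76 (0.69 to 0.82) in knockdown cells and 0.21 (0.15 to 0.27) in scramble cells. The log2 fold changes in the additive fit were 0.53 for SLC7A5 (SE 0.0789, edgeR adjusted p = 1.12e-05), 0.49 for SLC1A5 (SE 0.0732, edgeR adjusted p = 1.23e-05) and 0.48 for SLC3A2 (SE 0.0875, edgeR adjusted p = 0.000168). DESeq2 did not call SLC3A2 (adjusted p = 0.219). With imatinib as the single term edgeR called 0 of the 9 genes, and 0 of all 13296 (2651 of them had an unadjusted p under 0.05), while DESeq2 with both terms called 1003 of all genes. When the scramble library with imatinib was dropped, the single-term edgeR fit gave log2 fold changes of 0.60 for SLC1A5, -0.37 for SLC38A2 and -0.03 for SLC7A5. With 3 libraries and no term for knockdown, the knockdown difference of a gene enters its imatinib value in this fit. When any other library was dropped it called 0 of all genes, so those fits say nothing of the 9 in particular. Among the 9 erythroid markers 3 rose and 4 fell with imatinib; their part in these results was not tested.

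SLC38A2 had 386 CPM under imatinib against 502 CPM without it in knockdown cells, and 433 CPM against 497 CPM in scramble cells. Both libraries with imatinib were below both libraries without it, and the gene fell (log2 fold change -0.30, SE 0.0702, edgeR adjusted p = 0.00251). SLC38A1 had ratios of -0.23 (-0.26 to -0.20) in knockdown cells and -0.10 (-0.13 to -0.07) in scramble cells and was not called (edgeR adjusted p = 0.0899). SLC7A11 had ratios of opposite sign, 0.49 (0.39 to 0.58) in knockdown cells and -0.18 (-0.25 to -0.11) in scramble cells, and was not called (edgeR adjusted p = 0.317). SLC7A1, SLC6A9 and SLC1A4 had log2 fold changes of 0.11, 0.18 and -0.07 and were not called.

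In these libraries the imatinib ratio of a gene went with its GC content. For the 2522 genes of 55% GC or more that averaged at least 5 CPM, the median ratio was 0.45 in knockdown cells and 0.26 in scramble cells. For the 4285 genes under 45% it was -0.19 in knockdown cells and -0.11 in scramble cells. The 4 transporter genes of 55% or more were SLC1A5 (61.3%), SLC7A5 (61.1%), SLC6A9 (59.65%) and SLC3A2 (57.4%), and the 3 genes under 45% were SLC38A1 (41.3%), SLC38A2 (38.1%) and SLC7A11 (35.4%). The genes that rose with imatinib are thus all of high GC content and the one that fell is of low GC content. Once a smooth trend of GC content and length was taken off, the ratios in knockdown and in scramble cells were 0.16 and 0.11 for SLC7A5, 0.10 and 0.06 for SLC1A5, and -0.18 and -0.09 for SLC38A2. With the same trend entered as offsets in edgeR, none of SLC7A5 (adjusted p = 0.267), SLC1A5 (adjusted p = 0.530) and SLC38A2 (adjusted p = 0.196) was called.

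SLC3A2 and SLC7A11 were the 2 genes called with these offsets, both higher, where 2.3% of all genes were called higher and 2.44% lower. SLC3A2 then had ratios of 0.41 in knockdown cells and 0.01 in scramble cells (log2 fold change 0.21, SE 0.0618, edgeR adjusted p = 0.0243). SLC7A11, the transporter gene of lowest GC content, had 0.74 in knockdown cells and -0.03 in scramble cells (log2 fold change 0.33, SE 0.0682, edgeR adjusted p = 0.000102). For both genes the ratio in scramble cells was near 0, so the call rests on the knockdown cells. SLC7A5, SLC7A11 and SLC1A4 had log2 fold changes of -1.08, -0.71 and -1.13 for knockdown with the offsets and fell in that fit too.

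**Figure D4:**
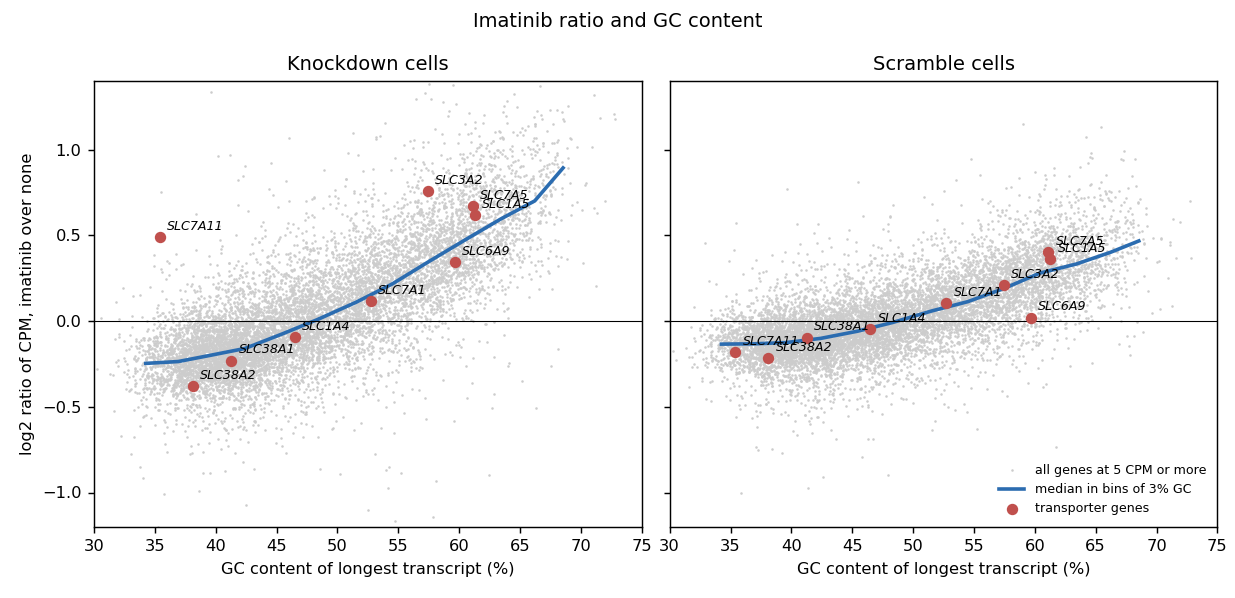
Log2 ratio of imatinib over no imatinib (vertical axis) against the GC content of the longest transcript (horizontal axis, percent) in knockdown cells (left) and scramble cells (right), 1 library each. Grey points are genes averaging at least 5 CPM, the line is their median in bins of GC content, and red points are the 9 transporter genes. In knockdown cells SLC7A11 stood at 0.49 and 35.4% GC, where the line is below 0.

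Because several of these genes fell with knockdown together and are known as ATF4 targets, the promoter windows of RefSeq (GRCh38.p14, 250 bases before to 50 after each annotated start) were searched on both strands for TGATGNAAN, the core letters of the C/EBP-ATF element, and for CACGTG, the E-box read by MYC among other factors. Windows, 14 in all, were found for 8 of the 9 genes, all but SLC7A11. TGATGNAAN was present in 5 of the 14 windows, against 3.61% of all 35116 windows, and CACGTG in 2 of the 14, against 7.26%. No match of the first motif overlapped one of the second. The matches of TGATGNAAN are shown with 10 bases on either side, or fewer at the end of a window, 5′ to 3′ on the strand of the gene, with the match in capitals.
SLC1A4 (chr2:64989381-64989409, plus strand): gcggctcccgTTTGCATCAtctccagccg
SLC7A1 (chr13:29595663-29595691, minus strand): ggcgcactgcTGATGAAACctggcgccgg
SLC3A2 (chr11:62881725-62881748, plus strand): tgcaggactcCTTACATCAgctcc
SLC1A5 (chr19:46784893-46784921, minus strand): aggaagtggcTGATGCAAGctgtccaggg
SLC38A1 (chr12:46266502-46266530, minus strand): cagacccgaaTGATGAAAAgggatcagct
The matches of CACGTG, in capitals, are shown in the same way because one of them lies before SLC7A5, a gene that fell.
SLC7A5 (chr16:87869622-87869647, minus strand): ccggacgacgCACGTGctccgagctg
SLC1A5 (chr19:46787328-46787353, minus strand): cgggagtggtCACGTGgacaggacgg

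In SLC1A4 and SLC3A2 the letters lie on the strand opposite to the gene. The SLC1A4 match begins 8 bases before the second listed start of the gene and that of SLC7A1 8 bases after its start. Those of SLC3A2, SLC1A5 and SLC38A1 belong to 1 of 3, 1 of 3 and 1 of 2 listed starts. SLC7A5 held no TGATGNAAN in its window and one CACGTG, which begins 130 bases before the start, so of the genes that fell with knockdown and had a window, SLC1A4 held the first motif and SLC7A5 did not. SLC1A5, which was not called for knockdown, held both, at different starts, and the windows of SLC38A2 and SLC6A9 held neither. A match of letters is a description of the window and not evidence that a factor binds there, and the window leaves out introns and distal elements.

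The regulators of the integrated stress response were measured in the same libraries. ATF4 itself had 177 CPM in the knockdown library and 209 CPM in the scramble library, and under imatinib 202 CPM in the knockdown library and 220 CPM in the scramble library. It was not called for knockdown (log2 fold change -0.17, SE 0.0712, edgeR adjusted p = 0.171); with the GC and length offsets it fell (log2 fold change -0.24, edgeR adjusted p = 0.00103). Over all genes tested, 3.34% fell and 3.8% rose with knockdown. Of 16 measured regulators of 18 listed, 4 fell with knockdown and 0 rose, with a median of -0.11 against 0.01 for all genes. These were ATF3 (-1.47), a stress-induced transcription factor present at 1.07 to 3.44 CPM, DDIT4 (-1.27), an inhibitor of mTORC1, TRIB3 (-0.50), a pseudokinase that restrains ATF4, and CEBPG (-0.38), a partner of ATF4. With the offsets 5 fell and 3 rose, where 6.33% of all genes fell and 1618 of 13255 were called in either direction. With imatinib 3 of the 16 regulators rose and 1 fell, where 13.8% of all genes rose and 7.08% fell. PPP1R15A, ATF5 and SESN2 rose by 0.38, 0.43 and 0.40, and EIF2AK3 had a change of -0.32 and fell. With the offsets none of these 4 was called.

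Of 33 other listed carriers of the cell surface, 23 were in the table and 8 passed the filter. With knockdown 1 rose, 1 fell and 6 were not called, with a median of 0.12, where 3.8% of all genes rose and 3.34% fell. SLC6A6, the taurine carrier, fell (-0.28, edgeR adjusted p = 0.0190), with 116 CPM in the knockdown library and 155 CPM in the scramble library, and under imatinib 140 CPM in the knockdown library and 157 CPM in the scramble library. SLC16A10, a carrier of aromatic amino acids, rose (2.25, edgeR adjusted p = 0.00208) at a low level. It had 3.95 CPM in the knockdown library and 0.241 CPM in the scramble library. Under imatinib it had 1.54 CPM in the knockdown library and 0.851 CPM in the scramble library. SLC16A10 reached 1 CPM only in the knockdown libraries, so whether it was tested at all depended on the direction of its difference. With imatinib SLC7A8, SLC6A19 and SLC38A5 rose (0.48, 0.27 and 0.26), where 13.8% of all genes rose. With the offsets SLC7A8, another light chain partner of SLC3A2, was the one still called (0.35, edgeR adjusted p = 2.48e-06). SLC7A8 had ratios of imatinib over none of 0.80 in knockdown cells and 0.16 in scramble cells, and the difference between them was not tested.

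Carriers of internal membranes were counted next, beside the 3.34% of all genes called lower and 3.8% called higher with knockdown. With the offsets 6.33% of all genes were called lower with knockdown, and 1618 of 13255 in either direction. Of 8 measured lysosomal carriers SLC36A1, which exports small neutral amino acids from lysosomes, fell (-0.38, edgeR adjusted p = 0.0187) and 7 were not called, with a median of 0.04; with the offsets 2 fell and 1 rose. Of 10 measured mitochondrial carriers 0 were called, with a median of -0.03. Of 26 measured genes of amino acid sensing for mTORC1, the kinase that responds to amino acid supply, 0 were called by edgeR, with a median of 0.02, and with the offsets 1 rose and 1 fell. Imatinib gave 13.8% of all genes called higher and 7.08% called lower. With imatinib MFSD12 (0.67) and PQLC2 (0.50) rose among the lysosomal carriers. SLC25A22, a mitochondrial glutamate carrier, rose (1.02) and SFXN1, a mitochondrial serine carrier, fell (change -0.25). In the sensing list 6 rose, among them WDR24, NPRL3 and MLST8 (0.48, 0.45 and 0.41), and SESN3 fell (change -0.57). With the offsets SLC25A22 (0.53, edgeR adjusted p = 0.00347) and SESN3 (-0.38, edgeR adjusted p = 0.0163) were still called, and 0 of the lysosomal carriers.

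Genes that use the transported amino acids were also counted. Among 8 measured enzymes of glutamine and glutamate metabolism 2 fell with knockdown and 0 rose, with a median of -0.18: ASNS, asparagine synthetase (-0.89, edgeR adjusted p = 6.09e-09), and PSAT1 of serine synthesis (-0.74, edgeR adjusted p = 6.42e-07), both known ATF4 targets. Of 10 measured genes of glutathione synthesis and redox defence 4 fell and 0 rose, with a median of -0.13, where 3.34% of all genes fell and 3.8% rose. The 4 that fell were SLC7A11 itself, GCLM, the modifier subunit of glutamate cysteine ligase (-0.36), TXNRD1, a thioredoxin reductase (-0.25), and GSR, glutathione reductase (-0.25). With the offsets 5 of this list fell and 1 rose, where 6.33% of all genes fell and 1618 of 13255 were called in either direction. With imatinib KEAP1, NQO1 and GPX4 rose in this list (0.49, 0.34 and 0.28), where 13.8% of all genes rose. With the offsets NQO1 alone of these 3 was called, and GPX4 had a value of -0.14. NQO1, a quinone reductase, had imatinib ratios of 0.70 in knockdown cells and -0.01 in scramble cells. In the glutamine list ASNS fell with imatinib (change -0.24) and was not called with the offsets (edgeR adjusted p = 0.0717). Among 10 measured heme synthesis genes ALAD and ALAS2, which act at the first steps from glycine, rose with knockdown (0.65 and 0.52), and CPOX fell (-0.43), with a median of 0.00. CPOX also fell with imatinib (-0.32).

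**Figure D5:**
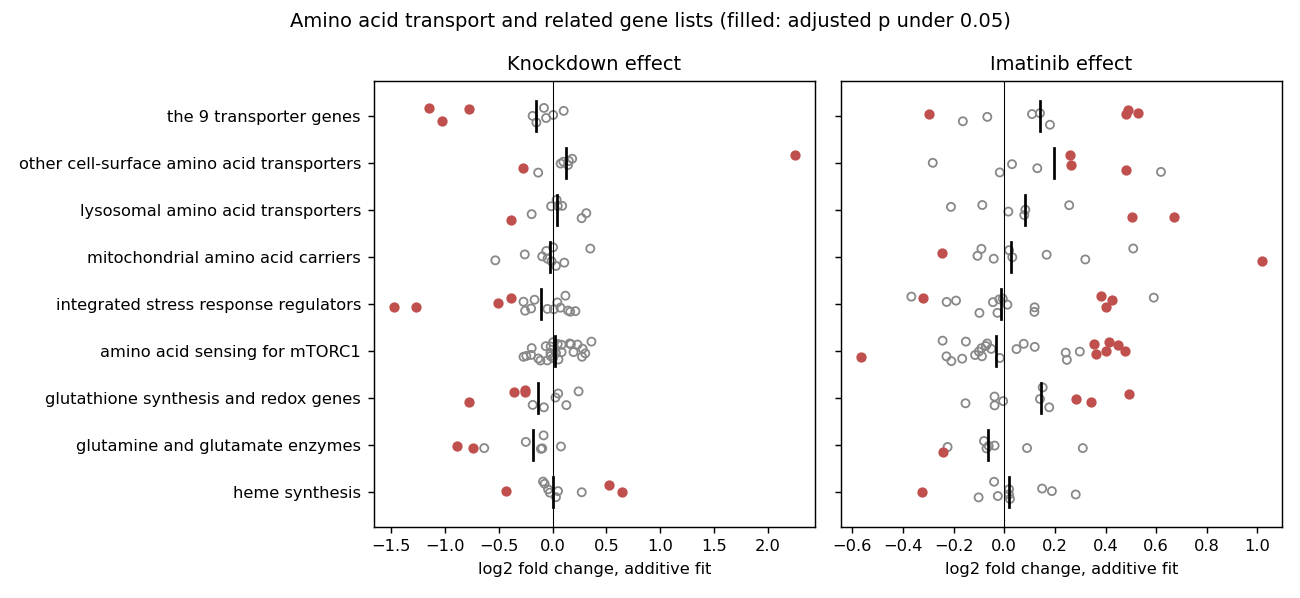
Log2 fold change in the additive fit (horizontal axes) of each tested gene of 9 lists (rows) for knockdown (left) and imatinib (right); filled points are genes with an adjusted p under 0.05, open points the others, and bars the list medians. The 9 transporter genes had a median of -0.15 with 3 genes lower for knockdown, and 0.14 with 3 higher and 1 lower for imatinib.

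By the Euclidean distance of log2 CPM values over the 4 libraries, each gene centred on its mean, the protein-coding genes closest to the median profile of the 9 transporter genes among 9360 candidates were TSPAN5 (a tetraspanin), CBS, ZBED4 (a zinc finger protein), ADARB1 (an RNA editing enzyme) and XYLB (xylulokinase), at distances of 0.0709 to 0.0752. The median profile was -0.26 in the knockdown library and 0.12 in the scramble library, and under imatinib -0.14 in the knockdown library and 0.14 in the scramble library. CBS, which converts homocysteine to cystathionine on the way to cysteine, had 23.2 CPM in the knockdown library and 31.1 CPM in the scramble library, and under imatinib 25.1 CPM in the knockdown library and 31.3 CPM in the scramble library. With 4 points per gene this likeness is a description of these libraries.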

How the data were processed

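Total RNA was depleted of ribosomal RNA and made into libraries by a directional method, per the labels' protocols. Per the submitters' processing notes, the tools were HISAT2, HTSeq 0.6.1 and FastQC, on GRCh38. Annotation release and strand setting of the counting: not given in the sources used here. Genes that share exons with a gene on the opposite strand are therefore uncertain to that extent: SLC6A9 shares 404 exon bases with CCDC24, SLC1A5 780 with an antisense gene, SLC7A11 865 with SLC7A11-AS1 (at most 4 counts) and SLC7A5 271 with an antisense gene. The authors deposited whole-number read counts per gene, which were used unchanged. The deposited FPKM columns are treated as a score, because 6 genes have negative values; they served for levels per length and for 1 alternative. The 4 deposited log2 columns were not used.

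CPM are counts scaled to the library total. Genes reaching 1 CPM in 2 or more libraries were tested across all genes with edgeR 4.0.16 (R 4.3.3), with TMM scaling and an additive model of knockdown and imatinib (33.8 prior and 1 residual degrees of freedom, common biological coefficient of variation 0.0783). Log2 ratios between libraries use a prior count of 2 and exact binomial 95% intervals, and levels exact Poisson intervals; they cover counting error only, and reads without molecular identifiers are not independent. GC content and length are those of the longest GENCODE 29 transcript (28329 identifiers matched); smooth trends were fitted with mgcv 1.9.3. The test was tried on simulated data. The transporter genes, the 13 gene lists and the corrections were chosen with earlier results of these data known. Named genes are the transporter genes, TCF7, ATF4, up to 4 called genes of each list by size of change, and the 5 genes nearest in pattern; SLC7A5P1 was added. Alternatives were DESeq2 size factors or total counts, no filter or one at 5 CPM, DESeq2 1.42.0, limma 3.58.1 on log2 of FPKM plus 0.1, no term for the other factor, GC and length offsets, a prior count of 0.5, and each library left out.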

Additional observations from a re-analysis of the deposited data

Results flagged for a closer look

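The knockdown ratio of SLC3A2 had opposite signs in the imatinib states, 0.19 under imatinib and -0.36 without it, each with a counting interval that leaves out 0. The imatinib ratio of SLC7A11 likewise had opposite signs, 0.49 in knockdown cells and -0.18 in scramble cells. With 1 library per group neither difference was tested. With the trend over GC content and length removed, SLC3A2 had 0.05 and -0.35, and SLC7A11 0.74 and -0.03.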

How the results depend on the processing

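No paired analysis was possible because each group has 1 library and the labels give no replicate numbers. The count of transporter genes called was within 1.5 times the reported one under both other scalings, both other filters, DESeq2 and limma, for knockdown (2 or 3 genes) and for imatinib (3 or 4). Without a term for the other factor it was 0 for knockdown and 0 for imatinib, where all genes together also gave 0 (818 and 2651 at an unadjusted p under 0.05), and with each library left out in that form it ranged between 0 and 4 for knockdown and between 0 and 2 for imatinib. With GC and length offsets it was 4 for knockdown and 2 for imatinib. The cause was not tested. Over all genes, knockdown gave 949 calls as reported, 1618 with offsets, 272 in DESeq2 and 195 in limma, and imatinib 2780 as reported, 628 with offsets, 1003 in DESeq2 and 1094 in limma.

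The log2 fold change of SLC6A9 for knockdown, 0.01 as reported, was -0.0089 with total counts, -0.0128 with the filter at 5 CPM, -0.0572 with offsets, -0.0007 in DESeq2 and -0.0108 in limma. With offsets the imatinib values of SLC7A1 and SLC6A9 were -0.0099 and -0.173. With the trend removed, the ratio of imatinib over none was -0.0467 for SLC7A1 and -0.1074 for SLC6A9 in knockdown cells and 0.0199 for SLC38A1 in scramble cells.

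With each library left out, knockdown values ranged from -0.46 to 0.28 for SLC3A2, -0.21 to 0.39 for SLC1A5, -0.27 to 0.13 for SLC38A2 and -0.16 to 0.16 for SLC6A9. Imatinib values ranged from -0.0277 to 1.19 for SLC7A5, -0.38 to 0.73 for SLC7A11 and -0.77 to 0.61 for SLC1A4. These fits have 3 libraries and no term for the other factor, so a gene's difference for that factor enters its value. The ranges are therefore not the spread of 1 effect. Between paired libraries the imatinib ratios in knockdown and in scramble cells were 0.67 and 0.40 for SLC7A5, and -0.093 and -0.045 for SLC1A4. SLC7A5, SLC7A11 and SLC1A4 were lower with knockdown in every fit run. For each of them both knockdown libraries lay below both scramble libraries, so leaving out a library could not change the sign. Depth limits SLC1A4 and SLC6A9 most, with 220 to 540 counts per library.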
